A study of Homo sapiens with 15 samples.

Results

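H3K27ac peaks that moved the same way in both metastatic sub-populations of a breast cancer cell line were examined. Consensus H3K27ac peaks were tested with LM2 and BrM2, weighted equally, against Par, and a peak was kept when it passed the test (DESeq2, adjusted p under 0.05) and when all 4 metastatic libraries lay on the same side of both Par libraries. This left 2277 of 62195 peaks, 1576 above Par (shared higher) and 701 below (shared lower). Each peak was assigned to the nearest start of a protein-coding transcript, so the members fell to 1524 of 14848 genes, of which 1030 had a shared higher peak, 521 a shared lower peak and 27 both.

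MDA-MB-231 is a triple-negative, mesenchymal-like human breast cancer cell line, and Par is its parental population. LM2 and BrM2 are sub-populations of it that were selected in mice for growth in lung and in brain, so each metastatic group is a single derived population and not a set of independent clones. The 6 H3K27ac libraries came from Par, LM2 and BrM2 with 2 replicates each, and 6 H3K4me3 libraries of the same lines were used beside them. According to the labels all lines were kept in DMEM with 10% FBS and antibiotics for 3 days, with no other treatment, and crosslinked with 1% formaldehyde over 10 min, whereas the study's methods give a longer fixation. The H3K27ac libraries held between 1994996 (BrM2 replicate 2) and 6450028 (LM2 replicate 1) counts in peaks. Replicate libraries were not copies of each other, since the chi-square of their counts per degree of freedom was 3.90 (Par), 4.40 (LM2) and 2.12 (BrM2). Promoter H3K27ac at 5 marker genes of the line ranged from 18.1 to 100.5 normalized counts per kb over the 6 libraries, against a median of 29.0 over 15173 promoter peaks. In every library VIM, AXL and ZEB1 lay above that median, whereas CD44 (18.1 to 32.04) and KRT18 (21.6 to 37.7) lay below it in some. Promoters of the luminal genes GATA3, CDH1, FOXA1, ESR1 and ERBB3 ranged from 3.94 to 33.3. No promoter peak was nearest to the leukocyte genes PTPRC and CD3E, to PECAM1 or to PGR, while the endothelial gene CDH5 (17.4 to 27.02) and the fibroblast genes COL1A1 and PDGFRB (11.5 to 33.3) had 1 to 2 each.

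Acetylation of lysine 27 of histone H3 is laid down by p300 and CBP at active promoters and enhancers and is removed by histone deacetylases. Because it neutralizes a residue that Polycomb proteins otherwise methylate, it separates active enhancers from poised ones. H3K4me3, in contrast, stands mainly at active promoters. A gain or loss of read counts can follow the mark itself or the number of DNA copies of a region, and in these bulk populations a change in every cell and a change in the share of cells that carry the mark cannot be told apart.

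Sequences at the centre of the members are shown first, since transcription factors bind enhancers through short motifs. In windows of 300 bases at the peak midpoint (hg19), the RUNX motif TGTGGTT was held by 9.99% of shared lower, 5.71% of shared higher and 5.69% of all windows, counting both strands. With peaks within 2 kb of a start left out, the shares were 11.6% of 535, 5.89% of 1408 and 6.45% of 47022. The AP-1 motif TGANTCA, bound by FOS and JUN proteins, was held by 17.3% of shared lower, 17.5% of shared higher and 14.1% of all windows, and by 19.8%, 18.8% and 16.5% away from starts. The SP/KLF motif GGGCGG, common in CpG-rich promoters, was held by 14.6%, 9.58% and 17.6%, but away from starts by 4.86%, 6.68% and 8.31%, so the order of shared lower and shared higher windows turned. The TEAD motif GGAATG was held by 20.3%, 19.9% and 16.7%, and by 21.1%, 20.5% and 18.0% away from starts. The 2 shared higher windows below are among those with the smallest adjusted p that hold an AP-1 motif, lie within 100 kb of a start and touch no annotated exon, and capitals mark the motif (or its reverse complement). They lie at chr6:39393709-39394008, plus strand, in an intron of KIF6, and at chr17:66377356-66377655, plus strand, in an intron of ARSG.
KIF6: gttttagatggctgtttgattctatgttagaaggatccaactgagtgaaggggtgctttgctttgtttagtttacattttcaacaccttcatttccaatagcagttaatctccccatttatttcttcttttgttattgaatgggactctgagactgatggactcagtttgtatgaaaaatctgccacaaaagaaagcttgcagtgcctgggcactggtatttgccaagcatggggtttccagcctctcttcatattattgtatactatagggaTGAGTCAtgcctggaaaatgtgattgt
WIPI1: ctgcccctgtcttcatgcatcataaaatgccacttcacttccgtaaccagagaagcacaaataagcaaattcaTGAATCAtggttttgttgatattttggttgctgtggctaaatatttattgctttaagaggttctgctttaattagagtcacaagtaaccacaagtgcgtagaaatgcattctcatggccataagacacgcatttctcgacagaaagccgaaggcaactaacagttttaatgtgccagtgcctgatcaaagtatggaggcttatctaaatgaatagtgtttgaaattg
Their GC contents were 39.3% and 38.7%, against means of 45.8% in shared higher, 47.3% in shared lower and 48.7% in all windows. Normalized counts of the whole peak were 14.8 and 12.02 for Par, 149 and 151 for LM2, and 109 and 108 for BrM2 for KIF6. For the peak nearest to WIPI1 they were 93.2 and 132 for Par, 545 and 509.6 for LM2, and 301 and 364 for BrM2. At both peaks all metastatic libraries lay above both Par libraries, as the rule for members requires, with log2 fold changes of 3.24 ± 0.39 and 1.89 ± 0.26.

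The shared lower windows below were chosen in the same way for the RUNX motif, which capitals mark. They lie at chr19:55032351-55032650, plus strand, and at chr1:219844012-219844311, plus strand, both between genes, and at chr7:104597690-104597989, plus strand, in an intron of KMT2E.
LAIR2: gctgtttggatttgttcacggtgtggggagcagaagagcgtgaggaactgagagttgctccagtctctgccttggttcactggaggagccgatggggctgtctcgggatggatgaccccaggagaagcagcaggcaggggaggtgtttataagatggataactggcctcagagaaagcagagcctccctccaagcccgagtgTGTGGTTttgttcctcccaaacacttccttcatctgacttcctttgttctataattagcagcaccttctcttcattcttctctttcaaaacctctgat
ZC3H11B: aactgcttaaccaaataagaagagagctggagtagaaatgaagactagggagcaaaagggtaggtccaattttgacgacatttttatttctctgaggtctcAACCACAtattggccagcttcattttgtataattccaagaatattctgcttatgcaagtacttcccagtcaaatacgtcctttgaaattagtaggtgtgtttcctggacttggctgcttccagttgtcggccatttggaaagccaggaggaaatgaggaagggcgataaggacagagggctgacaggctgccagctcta
KMT2E: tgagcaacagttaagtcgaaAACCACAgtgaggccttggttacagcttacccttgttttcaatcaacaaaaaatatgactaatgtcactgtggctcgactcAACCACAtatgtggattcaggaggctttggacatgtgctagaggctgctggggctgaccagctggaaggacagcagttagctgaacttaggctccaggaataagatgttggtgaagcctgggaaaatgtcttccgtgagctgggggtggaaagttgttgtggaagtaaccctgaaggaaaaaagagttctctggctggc
The KMT2E window held 2 matches and the others 1 each. The peak nearest to LAIR2 had normalized counts of 409 and 328 for Par, 83.6 and 60.1 for LM2, and 99.4 and 102 for BrM2. Counts were 399.9 and 309 for Par, 139.7 and 154 for LM2, and 103 and 129 for BrM2 at the peak nearest to ZC3H11B, and 94.96 and 72.1 for Par, 23.6 and 13.8 for LM2, and 17.5 and 11.6 for BrM2 at that in KMT2E. Each of these peaks was lower in both metastatic lines, with log2 fold changes of -2.11 ± 0.27, -1.45 ± 0.26 and -2.30 ± 0.42. Without Par replicate 1 the KMT2E peak was at -2.10 and lost its call. The KIF6 peak, WIPI1, ZC3H11B and KMT2E were chosen for their sequence and lie outside the rule for named genes.

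For promoters, the 250 bases before a start are shown for MSI2, whose promoter peak was among the largest gains, and for TNFSF10, whose promoter peak was lower in both marks. They lie at chr17:55371796-55372045, plus strand, before an internal start of MSI2, and at chr3:172241266-172241515, minus strand, and are written in the direction of the gene. Capitals mark the RUNX motif, which the MSI2 stretch holds once and the TNFSF10 stretch does not.
MSI2: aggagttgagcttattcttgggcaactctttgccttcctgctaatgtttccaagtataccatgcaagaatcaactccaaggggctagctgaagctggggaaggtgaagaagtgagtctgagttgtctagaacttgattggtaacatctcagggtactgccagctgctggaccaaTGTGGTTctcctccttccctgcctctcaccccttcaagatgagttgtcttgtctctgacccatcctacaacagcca
TNFSF10: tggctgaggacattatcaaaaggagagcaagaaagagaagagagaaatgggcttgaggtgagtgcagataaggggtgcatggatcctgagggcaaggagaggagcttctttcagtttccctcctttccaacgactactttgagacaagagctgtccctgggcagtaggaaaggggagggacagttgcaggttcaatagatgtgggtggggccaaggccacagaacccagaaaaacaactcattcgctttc
The GC contents were 48.8% and 50.4%.

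Most members gained H3K27ac. Over all tested peaks, 3.33% (1628 of 48931) were called higher and 1.52% (744) lower, and 3.22% and 1.43% were also separated from Par in every library, so that 52 higher and 43 lower calls were not members. Without any test, 7200 peaks (11.6%) lay above both Par libraries in all 4 metastatic libraries and 7170 (11.5%) below, and 11915 of these 14370 peaks were tested. The share of higher calls was 68.6%, but 60.2% with the replicate number as a block, 51.9% with that block in edgeR, 80.0% with chromosome medians removed, 82.7% with the medians of 5 Mb windows removed, and 73.8% to 83.5% with 1 library left out. With the replicate block, 1913 peaks were shared higher and 1187 shared lower, and of the 2277 members 2253 stayed called. Every library carried weight. Shared higher and lower peaks numbered 508 and 100 without Par replicate 1, 478 and 118 without Par replicate 2, 765 and 233 without LM2 replicate 1, 981 and 340 without LM2 replicate 2, 775 and 212 without BrM2 replicate 1, and 986 and 336 without BrM2 replicate 2.

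Among the peaks that passed, fold changes were larger in shared higher than in shared lower members. The median log2 fold change of the rule's contrast was 1.92 among shared higher and -1.32 among shared lower peaks, values that chose the members and are given as a description. At least 2-fold changes were found at 1461 of the 1576 and 557 of the 701 peaks, and at least 4-fold changes at 730 and 105. Members were long, with median lengths of 2391 bp (higher) and 3272 bp (lower) against 1948 bp over tested peaks, and their median mean counts were 42.4 and 64.2 against 36.8. At the edge of the threshold, a peak nearest to KLF7 was just inside (1.54 ± 0.51, adjusted p = 0.0499) and one nearest to PCSK5 just outside (1.56 ± 0.52, adjusted p = 0.05002). Among lower peaks these were AGTR2 (-0.90 ± 0.30, adjusted p = 0.0499) and CSF2RA (-1.15 ± 0.38, adjusted p = 0.0501). In 9 shared higher peaks both Par libraries held 0 reads, and none of them was among the named peaks.

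Shared gains lay far from promoters. Of peaks over 100 kb from any protein-coding start, 6.82% (578 of 8471 tested) were shared higher, against 3.16% (830 of 26299) between 2 and 100 kb and 1.19% (168 of 14161) within 2 kb. Shared losses varied less with distance, with 1.61% (136), 1.52% (399) and 1.17% (166) in the same order. The median distance to a start was 55698 bp for shared higher and 23616 bp for shared lower peaks, against 16236 bp for tested peaks. Of tested peaks without an overlapping H3K4me3 peak 3.86% were shared higher and 1.6% shared lower, and of those with one 2.16% and 1.15%.

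**Figure D1:**
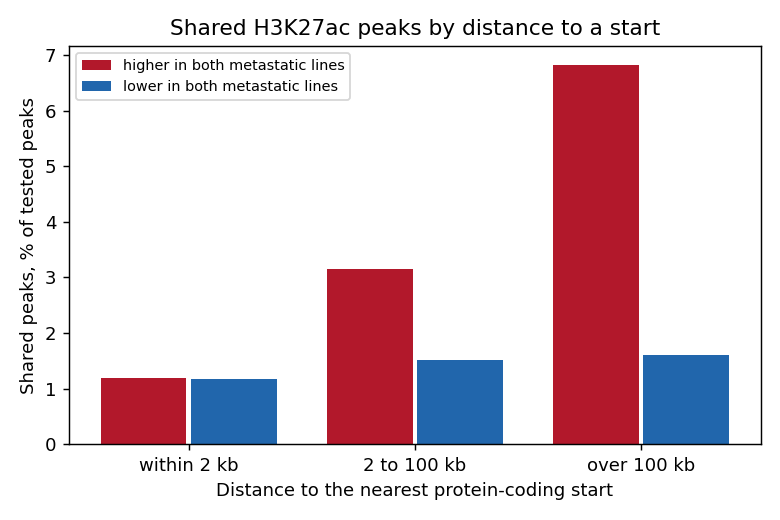
Percentage of tested H3K27ac peaks (vertical axis) that were higher (red) or lower (blue) than Par in every library of both metastatic lines and passed the test, by distance to the nearest protein-coding start (horizontal axis). Higher peaks go from 1.19% within 2 kb to 6.82% beyond 100 kb, and lower peaks from 1.17% to 1.61%.

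Both lines were then set side by side. Against Par, 3.63% of tested peaks were called in LM2 and 5.29% in BrM2, in contrasts that share the Par libraries. Of the 1576 shared higher peaks 974 were called in LM2 on its own, 1151 in BrM2, 640 in both and 91 in neither. Of the 701 shared lower peaks the counts were 275, 460, 138 and 104. Shared higher peaks had a median log2 fold change of 1.83 (LM2) and 1.95 (BrM2), and shared lower peaks one of -1.15 and -1.43. Tested directly, BrM2 and LM2 differed at 2.94% of tested peaks in the whole table and at 150 shared higher and 46 shared lower peaks. The change went further in BrM2 at 107 and 35 of these and further in LM2 at 43 and 11. A peak can thus move the same way in both lines and still differ between them in size.

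The gene with the most shared higher peaks was MSI2, which encodes Musashi-2, an RNA-binding protein that controls translation in stem and progenitor cells. Of 17 tested peaks nearest to MSI2 and within 100 kb of a start, 13 were shared higher, over 343924 bp of chromosome 17 (55292425 to 55636348), and all 21 peaks including the untested ones had a fold change above zero. Of the 13, 12 lay in introns of the gene. Summed over the 13 peaks, normalized counts were 161 and 155 for Par, 1085 and 1145 for LM2, and 1209.9 and 1093 for BrM2. The strongest peak (chromosome 17, 55517124 to 55523880) had 20.04 and 13.02 for Par, 274 and 265 for LM2, and 308 and 279.5 for BrM2. Metastatic libraries there were all at 265 or more and Par libraries at most 20.0, a log2 fold change of 4.08 ± 0.34, adjusted p = 1.70e-28. A peak over an internal start (chromosome 17, 55369156 to 55374504) had 7.84 and 8.01 for Par, 130.1 and 154 for LM2, and 201 and 150.4 for BrM2, with 4.32 ± 0.45, adjusted p = 1.73e-18, while the peak over the first start of the gene (55332967 to 55336463) changed by only 1.21 ± 0.32, from 57.5 and 50.1 in Par to between 100.4 and 176 in the metastatic libraries. LM2 and BrM2 differed at 0 of the 13 peaks. Of 13 other peaks with a mean count of at least 50 (strong peaks) within 500 kb of it, those of MSI2 among them, 7 were above zero, with a median of 0.04.

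**Figure D2:**
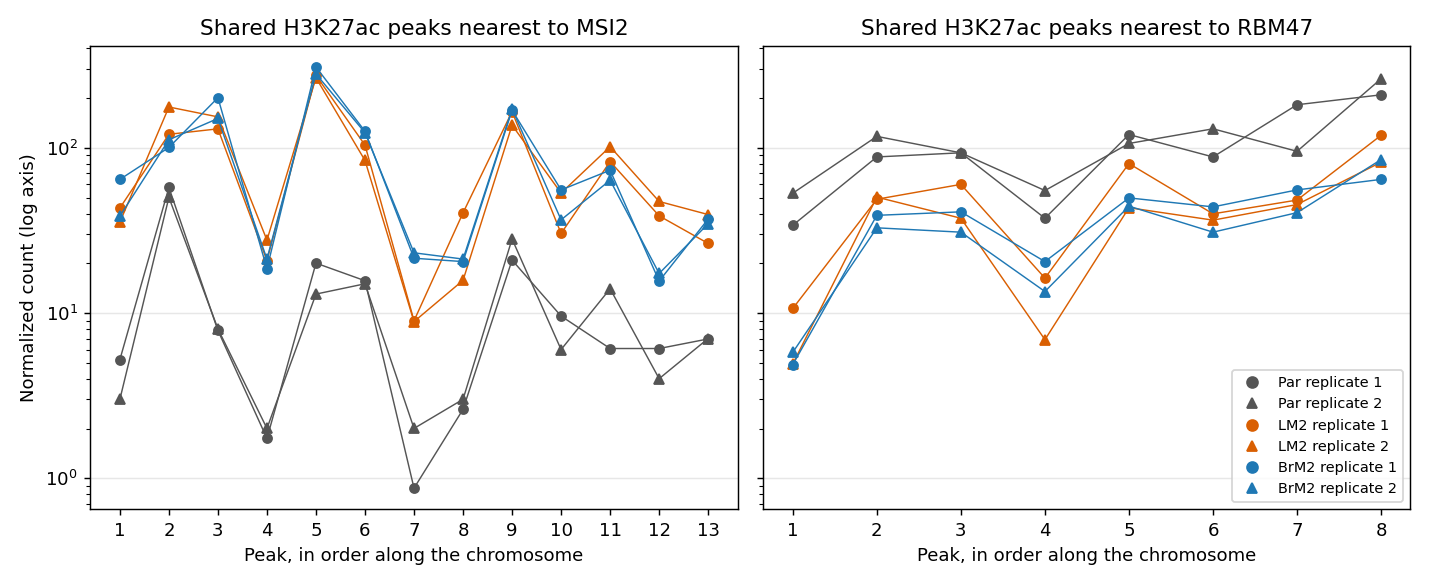
Normalized H3K27ac counts (vertical, log axis) at the 13 shared higher peaks nearest to MSI2 and the 8 shared lower peaks nearest to RBM47, in their order along the chromosome (horizontal axis), with 1 line per library, colours for Par, LM2 and BrM2, and circles and triangles for replicates 1 and 2. By the rule that chose these peaks, the Par libraries lie lowest at every MSI2 peak and highest at every RBM47 peak.

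Other genes with runs of shared gains were SETBP1, NALF1, PXDN, PLCB4 and PCBP3. At SETBP1, which encodes a protein that binds the SET oncoprotein, 8 of 12 tested peaks were shared higher (1.83 to 4.09 on the log2 scale), and summed counts were 46.2 and 56.1 for Par, 219 and 198 for LM2, and 378 and 389 for BrM2. The summed counts of SETBP1 in BrM2 were above those in LM2, although BrM2 and LM2 differed at none of its shared peaks in the test. NALF1, an auxiliary subunit of the sodium leak channel NALCN, had 6 of 6 tested peaks shared higher (1.45 to 2.72), with sums of 157 and 140.2 for Par, 598 and 668 for LM2, and 479 and 476 for BrM2. PXDN, peroxidasin, which crosslinks collagen IV in basement membranes, had 6 of 14 (0.96 to 2.02), including the peak at its start, with sums of 451 and 419 for Par, 1133 and 1241 for LM2, and 1086 and 1103 for BrM2. PLCB4, a phospholipase C, had 6 of 7 (1.65 to 3.12), with sums of 58.4 and 55.1 for Par, 264 and 263 for LM2, and 220.3 and 233 for BrM2, and the lines differed at 1 of them. At PCBP3, a poly(rC)-binding RNA-binding protein, 5 of 8 tested peaks were shared higher (1.25 to 3.82), all in its introns.

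The smallest adjusted p of all belonged to the peak in PCBP3 (chromosome 21, 47292366 to 47308393), with normalized counts of 34.8 and 43.1 for Par, 634 and 688 for LM2, and 430.0 and 484 for BrM2. The log2 fold change was 3.82 ± 0.27, adjusted p = 4.81e-40. Next came a peak in an intron of NFILZ (chromosome 19, 8743256 to 8749229), with 17.4 and 22.04 for Par, 209.8 and 206 for LM2, and 538 and 569 for BrM2. This peak rose in both lines (4.11 ± 0.32, adjusted p = 1.53e-33) and further in BrM2 (BrM2 against LM2, 1.41 ± 0.27, adjusted p = 7.48e-05). At both peaks the lowest metastatic library was far above the highest Par library.

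**Figure D3:**
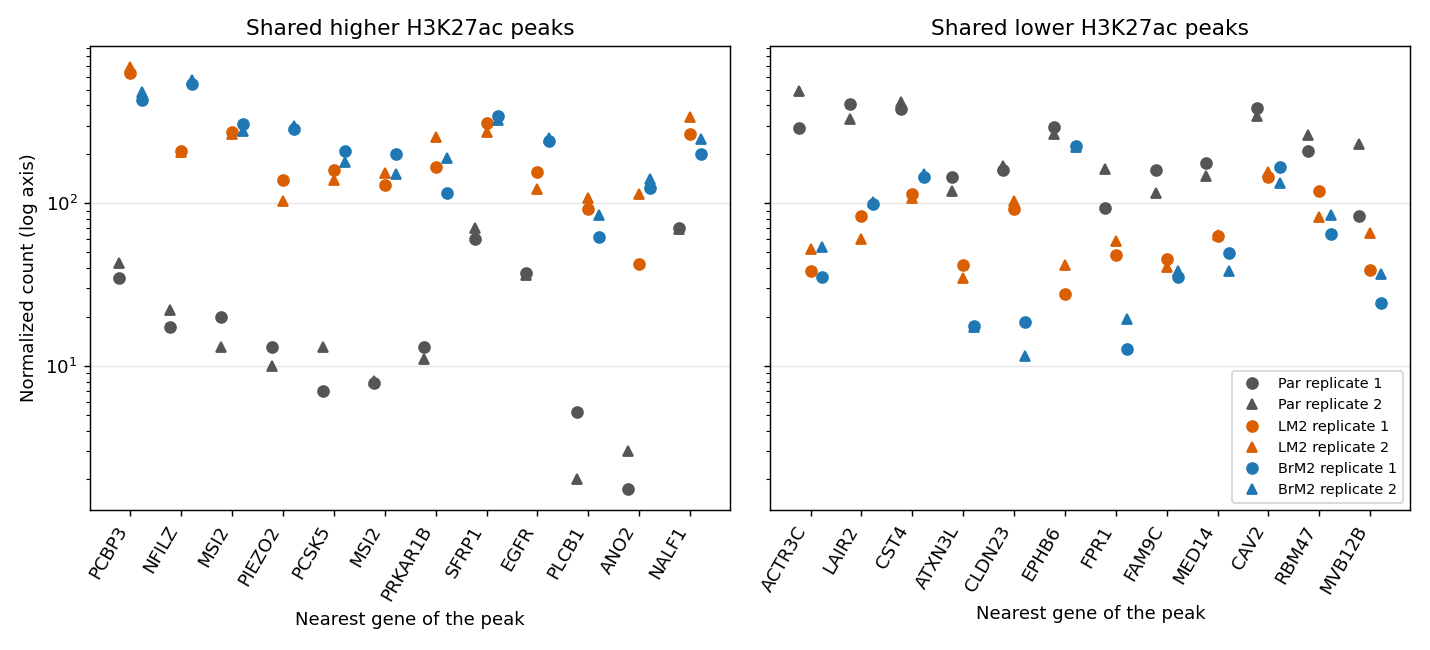
Normalized H3K27ac counts (vertical, log axis) per library at 12 shared higher and 12 shared lower named peaks with small adjusted p and a mean count of at least 50, labelled with the nearest gene, in Par (grey), LM2 (orange) and BrM2 (blue), with circles for replicate 1 and triangles for replicate 2. By the rule that chose the peaks, the 4 metastatic libraries lie on 1 side of both Par libraries at each. BrM2 stands apart from LM2 at NFILZ, PIEZO2, CLDN23, EPHB6 and FPR1.

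Among promoter peaks with a mean count of at least 50, the largest gains besides MSI2 were at PLCB1, PRKAR1B, KIF6, SERPINB2 and AFF3. PLCB1, a phospholipase C that cleaves phosphoinositides, had a peak 1420 bp from a start (chromosome 20, 8124811 to 8129552) with counts of 5.23 and 2.003 for Par, 92.0 and 107 for LM2, and 62.4 and 84.8 for BrM2. Par held only 6 and 2 raw reads there, so the size of the change (4.52 ± 0.61, adjusted p = 1.03e-10) rests on few reads. PRKAR1B, a regulatory subunit of cAMP-dependent protein kinase, had 13.1 and 11.02 for Par, 167 and 256 for LM2, and 115 and 189 for BrM2 (3.88 ± 0.42, adjusted p = 4.01e-17), and KIF6, a kinesin, 7.84 and 9.01 for Par, 94.2 and 106 for LM2, and 60.4 and 53.98 for BrM2 (3.18 ± 0.47, adjusted p = 6.64e-09). SERPINB2, plasminogen activator inhibitor 2, which holds back plasmin formation, had 27.01 and 16.03 for Par, 101 and 121 for LM2, and 112 and 109.9 for BrM2. Its 4 metastatic libraries lay between 101 and 121 (2.35 ± 0.36, adjusted p = 5.17e-08). AFF3, a nuclear protein of the AF4 family, rose in both lines (21.8 and 21.03 for Par, 52.2 and 71.95 for LM2, and 133 and 218 for BrM2, 2.27 ± 0.38, adjusted p = 6.79e-07) and further in BrM2, by 1.49 ± 0.38 over LM2 (adjusted p = 0.0069).

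Between 2 and 100 kb from a start, large gains besides those at MSI2 and NFILZ were nearest to ANO2, PCSK5 and PIEZO2, each in an intron of the gene itself. ANO2 encodes a calcium-activated chloride channel, and its intronic peak had 1.74 and 3.005 for Par, 42.1 and 113 for LM2, and 124 and 141 for BrM2 (log2 fold change 5.43 ± 0.75, adjusted p = 3.61e-10). With 2 and 3 raw reads in Par and 42.1 against 113 between the LM2 replicates, this is also the least precise of the group. PCSK5, a proprotein convertase that cleaves growth factor precursors, had 6.97 and 13.02 for Par, 159 and 138 for LM2, and 209.6 and 179 for BrM2 (4.11 ± 0.42, adjusted p = 1.99e-19), but of 4 other strong peaks within 500 kb none was higher. PIEZO2, a mechanically gated cation channel, had 13.1 and 10.02 for Par, 139 and 103 for LM2, and 285 and 299 for BrM2 (4.02 ± 0.39, adjusted p = 6.95e-21). BrM2 exceeded LM2 at PIEZO2 by 1.26 ± 0.32 (adjusted p = 0.00586).

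The genes with the most shared lower peaks were FAM9C, RBM47, CAV2 and ATXN3L. RBM47, an RNA-binding protein that regulates splicing and mRNA stability, had 8 of 10 tested peaks shared lower (-2.74 to -1.06), over 159139 bp, including 2 within 2 kb of a start. Summed counts were 852 and 911 for Par, 423 and 307 for LM2, and 319 and 283 for BrM2. That both lines lay below the lower Par library at each of these peaks follows from how members were chosen. CAV2, caveolin-2, a coat protein of caveolae, had 6 of 11 (-1.35 to -0.81) with sums of 1703 and 1558 for Par, 761 and 789 for LM2, and 871 and 779 for BrM2, but 26 of 27 other strong peaks within 500 kb of its strongest peak were also lower (median -0.70). FAM9C and ATXN3L lie on the short arm of chromosome X, with 8 of 12 and 5 of 11 tested peaks shared lower, and 17 of 17 strong neighbours were lower around each (median -1.42). Calls that ended when 1 of the libraries named was left out, or under another scaling, are given here and below with the log2 fold change in those fits in parentheses. RBM47 (-1.28) lost its call without Par replicate 2, and FAM9C (-1.55) without Par replicate 1. CAV2 (-0.57), FAM9C (-0.49) and ATXN3L (-1.05) lost their calls with the medians of 5 Mb windows removed.

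Among peaks between 2 and 100 kb from a start with a mean count of at least 50, the largest loss was in an intron of ACTR3C, an actin-related gene (chromosome 7, 150003617 to 150011917), with 291 and 489.8 for Par, 38.1 and 52.2 for LM2, and 35.1 and 53.98 for BrM2. LM2 and BrM2 overlapped there (-3.15 ± 0.32, adjusted p = 1.98e-19). The peak near LAIR2, a soluble decoy receptor for collagens, whose sequence is given above, had the next smallest adjusted p of these (5.25e-12). A peak nearest to CLDN23, a claudin of tight junctions (chromosome 8, 8482246 to 8489427), had 159 and 170.3 for Par, 92.6 and 103 for LM2, and 18.5 and 11.6 for BrM2. LM2 was at -0.75 and BrM2 at -3.38, and they differed (adjusted p = 2.08e-06). Against Par the peak was called in BrM2 but not in LM2 (adjusted p = 0.27). Of 13 strong neighbours of CLDN23 13 were lower in the joint contrast, with a median of -1.16. In the 5 Mb window from 5000001 to 10000000, however, the median of strong peaks was -0.01 in LM2 and -1.52 in BrM2. At a start, the smallest adjusted p was at PLAAT5, a phospholipid-modifying enzyme (chromosome 11, 63257778 to 63259832), with 134 and 86.1 for Par, 4.49 and 4.93 for LM2, and 13.6 and 19.3 for BrM2 (-3.68 ± 0.45, adjusted p = 2.48e-13).

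Among promoter peaks with a mean count of at least 50, losses were largest at FPR1, MVB12B, LSMEM1, CST4, MED14 and AKAP17A. FPR1, a receptor for formylated peptides best known in neutrophils, had 94.1 and 161 for Par, 48.2 and 58.2 for LM2, and 12.7 and 19.3 for BrM2 (-2.16 ± 0.38, adjusted p = 2.80e-06), and differed between BrM2 and LM2 by -1.79 ± 0.50 (adjusted p = 0.0188). CST4, a secreted cystatin that blocks cysteine proteases, had 382 and 417 for Par, 114 and 107 for LM2, and 144 and 150.4 for BrM2 (-1.64 ± 0.24, adjusted p = 4.52e-09). At MVB12B, a subunit of the ESCRT-I sorting complex, the Par replicates differed widely (83.6 and 230.4 for Par, 38.7 and 66.04 for LM2, and 24.4 and 36.6 for BrM2, -1.99 ± 0.42). LSMEM1 was at -1.82 ± 0.38. With each line tested on its own, FPR1 and LSMEM1 were called in BrM2 but not in LM2 (adjusted p = 0.0503 and 0.086). MED14, a Mediator subunit, and AKAP17A are on chromosome X, with -1.603 ± 0.30 and -1.56 ± 0.34. FPR1 (-1.72) and AKAP17A (-1.10) lost their calls without Par replicate 2, MVB12B (-2.14 to -1.09) without Par replicate 2 or BrM2 replicate 1 or 2, and LSMEM1 (-1.41) and MED14 (-1.46) without Par replicate 1. MED14 (-0.42) and AKAP17A (-0.44) lost their calls with the medians of 5 Mb windows removed.

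Shared losses were most frequent on chromosomes X and 7. On X, 12.1% of 1172 tested peaks were shared lower, which made up 20.3% of all shared lower peaks, and on chromosome 7, 4.11% of 2509 (14.7% of all). Most losses on X lay below 50 Mb, a limit chosen after the values were seen, with 125 shared lower and 0 shared higher of 522 tested peaks, against 17 and 17 of 650 above it. DESeq2 gave 6 peaks below 50 Mb an unadjusted p under 0.05 on the higher side, and edgeR called 4. Of 182 peaks below 50 Mb with a mean count of at least 50, 181 were lower, with a median log2 fold change of -0.84 for LM2 and -1.05 for BrM2. The lines differed in the window from 45000001 to 50000000, where the median of 62 such peaks was -0.19 for LM2 and -1.01 for BrM2. The whole stretch below 50 Mb held 1.13% and 1.13% of all H3K27ac counts in the Par libraries, 0.752% and 0.75% in LM2, and 0.556% and 0.559% in BrM2. On chromosome 7 the median was -0.38, with 795 of 981 such peaks lower. Without chromosome X, which was left out after the values were seen, there were 1559 shared higher and 559 shared lower peaks. With chromosome medians removed 394 of the 701 shared lower peaks stayed called, and with the medians of 5 Mb windows removed 273, while 1480 and 1352 of the 1576 shared higher peaks did. DNA copy number was not measured, and its part in these losses was not tested.

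**Figure D4:**
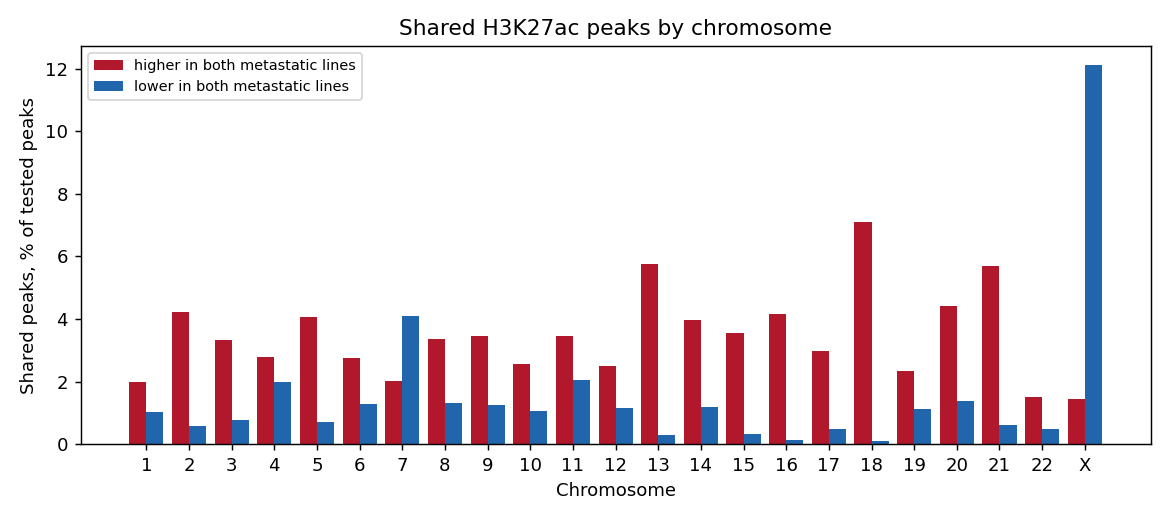
Percentage of tested H3K27ac peaks (vertical axis) on each chromosome (horizontal axis) that were shared higher (red) or shared lower (blue). Chromosome X stands out with 12.1% lower and chromosome 7 with 4.11%, whereas chromosome 18 has the most higher peaks, with 7.08%, and chromosome 13 has 5.77%.

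Shared gains were also uneven along the genome. On chromosome 18, 7.08% of 861 tested peaks were shared higher and 1 peak was shared lower, and on chromosome 13, 5.77% of 1335 were higher. In the 5 Mb window of chromosome 14 from 80000001 to 85000000, 15 of 29 tested peaks were shared higher. On chromosome 2 up to 5000000, which holds PXDN, 12 of 37 were higher and 18 of 18 strong peaks lay above zero. The window of chromosome 17 that holds MSI2 had 16 shared higher of 146 tested peaks and a median of -0.02, with 32 of 63 strong peaks below zero.

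H3K4me3, which was not used to choose the members, was examined where its peaks overlap them. The 397 shared higher H3K27ac peaks with an overlap had 396 H3K4me3 partners, of which 386 were above zero and 125 of 334 tested (37.4%) were called higher, with 0 called lower and a median log2 fold change of 1.77. The 212 partners of shared lower peaks had 196 below zero and 36 of 188 tested (19.1%) called lower, with 0 called higher and a median of -0.67. Over all H3K4me3 peaks 2.04% were called higher and 0.594% lower, and at the partners of other H3K27ac peaks 1.20% and 0.381%. In the opposite direction 1 partner of each set had an unadjusted p under 0.05 in DESeq2, and edgeR called 0. Both marks come from the same cell populations. Together 161 partners were called in the direction of H3K27ac, and 435 with the replicate block. Without 1 library the count was 29 (Par replicate 1), 20 (Par replicate 2), 85 (LM2 replicate 1), 78 (LM2 replicate 2), 68 (BrM2 replicate 1) and 80 (BrM2 replicate 2).

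Named peaks with both marks included AFF3, whose H3K4me3 counts were 18.4 and 12.3 for Par, 265 and 262 for LM2, and 418 and 447 for BrM2 (log2 fold change 4.53 ± 0.41, adjusted p = 2.47e-24). TNFSF10, the death receptor ligand TRAIL, had H3K27ac counts of 199 and 168 for Par, 80.8 and 49.3 for LM2, and 126 and 102 for BrM2 and H3K4me3 counts of 151 and 144 for Par, 28.97 and 34.4 for LM2, and 21.1 and 22.4 for BrM2. Its H3K27ac fell by 1.08 and its H3K4me3 by 2.48 on the log2 scale (adjusted p = 0.0109 and 8.17e-08). With each line tested on its own, the H3K27ac peak of TNFSF10 was called in LM2 (-1.48) but not in BrM2 (-0.68, adjusted p = 0.32). At a start of RUNX2, a Runt-family transcription factor of bone and mammary cells, H3K27ac counts were 73.2 and 64.1 for Par, 34.2 and 28.6 for LM2, and 12.7 and 15.4 for BrM2 (-1.72 ± 0.41, adjusted p = 0.00151), and H3K4me3 was at -3.62 ± 1.01 (adjusted p = 0.0183). That H3K4me3 size rests on few reads, with counts of 16.5 and 30.1 for Par, 6.1 and 10.6 for LM2, and 0 and 0.62 for BrM2. With each line tested on its own, the H3K27ac peak of RUNX2 was called in BrM2 (-2.32) but not in LM2 (-1.12, adjusted p = 0.17). PRKAR1B, PCBP3, PCSK5, PIEZO2, TEAD4 and NALF1 also had H3K4me3 partners called higher. At NALF1 the log2 fold change of H3K4me3 was 1.04 ± 0.31, with 643 and 435 normalized counts in Par. At PRKAR1B, PCBP3, PCSK5, PIEZO2 and TEAD4 it was 4.96 ± 1.51, 5.08 ± 1.46, 3.38 ± 0.90, 2.88 ± 0.84 and 3.34 ± 0.90, but Par held 0 H3K4me3 counts in replicate 1 and 0.77 to 5.39 in replicate 2, so these sizes rest on few Par reads. PLAAT5, MED14 and AKAP17A had partners called lower. TNFSF10 (-1.20 to -0.94) lost its call without Par replicate 1 or 2 or LM2 replicate 2 or BrM2 replicate 1 or 2, and RUNX2 (-1.81 to -1.62) without Par replicate 1 or 2 or BrM2 replicate 1.

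**Figure D5:**
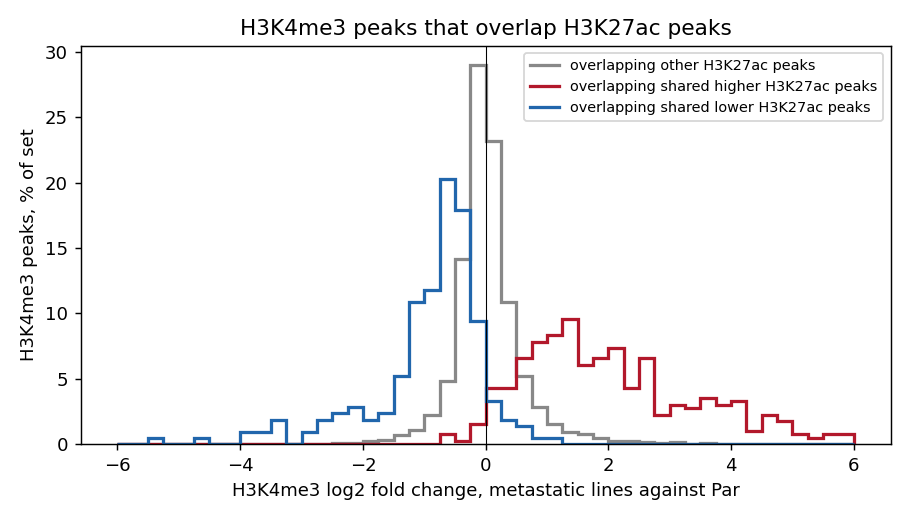
Distribution of H3K4me3 log2 fold changes of the metastatic lines against Par (horizontal axis, bins of 0.25, values beyond 6 in the outermost bins), as a percentage of each set (vertical axis), for H3K4me3 peaks that overlap shared higher (red), shared lower (blue) and other (grey) H3K27ac peaks. The medians are 1.77, -0.67 and -0.02.

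Gene lists of pathways were then counted, using peaks within 100 kb of a start of a list gene. In each list the peak with the smallest adjusted p in each direction was named by rule, and the other peaks given here were picked after their values were seen. Over all such peaks, 2.47% of 40460 tested were shared higher and 1.40% shared lower, with a median log2 fold change of -0.04. In the list of axon guidance and neural adhesion genes 15 of 186 tested peaks were shared higher (8.06%) and 3 shared lower (1.61%), with a median log2 fold change of 0.05. The higher peaks fell to 9 genes. The TENM2 gene, a teneurin that binds latrophilins across synapses, had 5 of the 15, and the strongest (chromosome 5, 167240090 to 167243860) had 7.84 and 4.01 for Par, 28.6 and 30.6 for LM2, and 132 and 148 for BrM2, further in BrM2 (adjusted p = 1.40e-05). TENM3 rose at its start (1.23 ± 0.24), as did the guidance receptor ROBO1 (1.27 ± 0.35). Its ligands SLIT2 and SLIT3 had peaks at 1.20 ± 0.37 and 3.07 ± 0.82. Plexins, the receptors of semaphorins, were shared higher at PLXNA1 and PLXNC1 (2 peaks each), and DSCAM at 3.74 ± 0.96, mostly in BrM2 (2.26 in LM2 and 5.23 in BrM2, BrM2 against LM2 adjusted p = 6.04e-04). Semaphorins went both ways, with SEMA3F at 1.32 ± 0.42, SEMA3C at -0.91 ± 0.26 and SEMA4D at -3.03 ± 0.64. The ephrin receptor EPHB6 fell in the joint contrast (-1.69 ± 0.27, adjusted p = 1.02e-07), but mostly in LM2, with counts of 295 and 266 for Par, 27.5 and 41.4 for LM2, and 225 and 222 for BrM2. ROBO1 (1.15 to 1.30) lost its call without Par replicate 1 or 2 or LM2 replicate 1 or 2 or BrM2 replicate 1, SLIT3 (2.55 to 3.54) without Par replicate 1 or 2 or LM2 replicate 2 or BrM2 replicate 2, and DSCAM (3.24 to 4.43) without Par replicate 1 or 2. SLIT2 (0.99 to 1.46), SEMA3F (1.08 to 1.59) and SEMA3C (-1.01 to -0.81) lost their calls whichever library was left out. SEMA3C (-0.56 and -0.47) lost its call with chromosome medians removed and with the medians of 5 Mb windows removed.

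Among cadherins and protocadherins, which hold cells together, 7 of 85 tested peaks were shared higher (8.24%) and 0 shared lower, with a median log2 fold change of 0.16. Over all peaks within 100 kb of a start the shares were 2.47% and 1.40%. On the lower side 7 had an unadjusted p under 0.05 in DESeq2, and edgeR called 1. CDH4, retinal cadherin, had 3 of them, including the peak at its start (207 in Par, 379 in LM2 and 414 in BrM2 as mean normalized counts, 0.94 ± 0.25). CDH13, which lacks a cytoplasmic domain, rose at its start from 429 and 329 in Par to 696 and 737 in LM2 and 679 and 594 in BrM2. FAT1, a large protocadherin, had 2 peaks, the stronger with 15.7 and 13.02 for Par, 124 and 105 for LM2, and 77.02 and 52.1 for BrM2 (2.59 ± 0.41, adjusted p = 1.12e-07). CDH4 (0.75 to 0.90) lost its call without Par replicate 1 or LM2 replicate 2 or BrM2 replicate 2, and CDH13 (0.65 to 0.86) without Par replicate 2 or LM2 replicate 1 or 2 or BrM2 replicate 1. CDH13 (0.49) lost its call with the medians of 5 Mb windows removed. In the list of luminal and basal lineage genes 7 of 84 tested peaks were shared higher (8.33%) and 2 shared lower (2.38%), with a median log2 fold change of 0.01. Among the higher ones were 2 intronic peaks of ESR1 (oestrogen receptor alpha, 2.87 ± 0.62 and 1.78 ± 0.48). ESR1 means were low, 5.25 in Par, 52.2 in LM2 and 28.6 in BrM2 at the larger change. The factors TFAP2C and BCL11A had peaks at 2.17 ± 0.59 and 1.53 ± 0.33, BCL11A further in BrM2 (adjusted p = 5.74e-05). The keratins KRT8 and KRT7, filament proteins of simple epithelia, fell at their starts, KRT8 with 239.6 and 329 for Par, 121 and 164 for LM2, and 116 and 158 for BrM2 (-1.03 ± 0.28, adjusted p = 0.00823) and KRT7 with 409 and 549 for Par, 227 and 367 for LM2, and 190.1 and 235 for BrM2 (-0.94 ± 0.27, adjusted p = 0.0175). The ESR1 peak at 2.87 (2.44) lost its call without Par replicate 1, the ESR1 peak at 1.78 (1.54 to 2.10) and TFAP2C (2.02 to 2.27) without Par replicate 1 or 2 or LM2 replicate 1 or BrM2 replicate 2, BCL11A (1.18) without Par replicate 2, KRT8 (-0.93 to -0.79) without Par replicate 2 or LM2 replicate 1 or BrM2 replicate 1, and KRT7 (-1.13 to -0.71) without Par replicate 1 or 2 or LM2 replicate 1 or BrM2 replicate 1. KRT8 (-0.74) and KRT7 (-0.64) lost their calls with the medians of 5 Mb windows removed.

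In the matrix list 10 of 202 tested peaks were shared higher (4.95%) and 4 shared lower (1.98%), with a median log2 fold change of 0.03. COL1A2, a chain of collagen I, had 72.3 and 74.1 for Par, 39.8 and 28.6 for LM2, and 16.6 and 7.71 for BrM2 (-1.79 ± 0.41, adjusted p = 0.00118), and a peak near COL5A1 was at -0.75 ± 0.23. With each line tested on its own, the COL1A2 peak was called in BrM2 (-2.49) but not in LM2 (-1.08, adjusted p = 0.21). Between the genes COL6A1 and COL6A2 on chromosome 21, 3 peaks rose, besides 1 in an intron of COL6A2 at a start (1.00 ± 0.33), and the one nearest to COL6A1 went from 2 and 2 raw reads in Par to 39.3 and 49.3 normalized counts in LM2 and 41.9 and 80.97 in BrM2. COL4A2, a basement membrane collagen, had peaks at 2.30 ± 0.63 and 2.63 ± 0.72, while COL18A1 was lower (-0.94 ± 0.31). Of the proteolysis list 2 of 102 tested peaks (1.96%) were shared higher, SERPINB2 and MMP3 (1.96 ± 0.63), and 1 (0.98%) lower, near MMP7 (-1.23 ± 0.38). The MMP7 peak was called in neither line on its own (adjusted p = 0.14 in LM2 and 0.073 in BrM2). Of 83 tested peaks at integrin genes 0 were shared in either direction, and DESeq2 called 0 of them. At an unadjusted p under 0.05 DESeq2 had 3 higher and 4 lower, while edgeR called 0 higher and 1 lower. Over all peaks within 100 kb of a start 2.47% were shared higher and 1.40% lower, shares at which few of 83 peaks would be shared. COL1A2 (-1.82 to -1.78) lost its call without Par replicate 1 or 2, the COL4A2 peak at 2.30 (1.97 to 2.77) without Par replicate 1 or 2 or LM2 replicate 2 or BrM2 replicate 1 or 2, and the COL4A2 peak at 2.63 (2.34 to 2.73) without Par replicate 1 or 2 or LM2 replicate 1 or BrM2 replicate 2. COL5A1 (-0.85 to -0.67), COL6A2 (0.96 to 1.03), COL18A1 (-1.03 to -0.86), MMP3 (1.57 to 2.54) and MMP7 (-1.36 to -1.10) lost their calls whichever library was left out. COL5A1 (-0.58 and -0.39) and MMP7 (-1.11 and -1.08) lost their calls with chromosome medians removed and with the medians of 5 Mb windows removed. COL18A1 (-0.91, -0.83 and -0.67) lost its call with a minimum of 10 counts per library, with chromosome medians removed and with the medians of 5 Mb windows removed.

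Growth factor lists were counted beside the shares over all peaks within 100 kb of a start, 2.47% shared higher and 1.40% shared lower. In the EGF receptor and MAPK list 6 of 164 tested peaks were shared higher (3.66%) and 4 shared lower (2.44%), with a median log2 fold change of -0.03. The ligand genes EREG (-1.18 ± 0.30), AREG (-0.93 ± 0.27) and EGF (-1.496 ± 0.44) each had a shared lower peak, and the receptor gene EGFR had 2 shared higher peaks. With each line tested on its own, the EREG peak was called in BrM2 (-1.57) but not in LM2 (-0.79, adjusted p = 0.23). The intronic EGFR peak (chromosome 7, 55219122 to 55227371) had 37.5 and 36.1 for Par, 155 and 122 for LM2, and 243 and 251 for BrM2, a log2 fold change of 2.33 ± 0.30, adjusted p = 1.50e-11, with 8 of 17 strong neighbours also above zero. The other EGFR peak (1.43 ± 0.33) was higher mostly in BrM2 (0.74 in LM2 and 2.13 in BrM2, BrM2 against LM2 adjusted p = 0.00661). The peaks of feedback inhibitors were at 1.15 ± 0.38 (DUSP1), 0.95 ± 0.28 (DUSP10) and 1.46 ± 0.44 (SPRED2), and SPRY4 had 1 peak in each direction (1.23 and -1.11). EREG (-1.18 to -0.91) lost its call without Par replicate 1 or LM2 replicate 1 or BrM2 replicate 1, the EGFR peak at 1.43 (1.38 to 1.498) without Par replicate 1 or 2, and DUSP1 (0.86 to 1.40) without Par replicate 1 or 2 or LM2 replicate 2 or BrM2 replicate 1 or 2. AREG (-1.08 to -0.76), EGF (-1.66 to -1.32), DUSP10 (0.76 to 1.18) and SPRED2 (1.30 to 1.65) lost their calls whichever library was left out. EREG (-0.71) and SPRED2 (1.26) lost their calls with the medians of 5 Mb windows removed. AREG (-0.74 and -0.47), EGF (-1.31 and -1.10) and DUSP1 (1.11 and 1.05) lost their calls with chromosome medians removed and with the medians of 5 Mb windows removed.

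In the TGF-beta list 8 of 198 tested peaks were shared higher (4.04%) and 1 shared lower (0.51%), with a median log2 fold change of -0.06. For this list and the next, the shares over all peaks within 100 kb of a start were 2.47% and 1.40%. The activin subunit genes INHBA (1.53 ± 0.48) and INHBB (1.34 ± 0.32 at its start) had higher peaks, as did the ligand gene BMP2 (1.20 ± 0.37), while BMP4 fell (-1.15 ± 0.27), with 210.0 and 253 for Par, 121 and 164 for LM2, and 74.1 and 80.97 for BrM2. With each line tested on its own, the BMP4 peak was called in BrM2 (-1.58) but not in LM2 (-0.71, adjusted p = 0.25). The peaks of INHBA and SMAD6 were also called in BrM2 but not in LM2, and that of BMP2 in LM2 but not in BrM2. At INHBB the change lay mostly in BrM2 (0.53 in LM2 and 2.14 in BrM2, BrM2 against LM2 adjusted p = 7.91e-04). The co-receptor gene TGFBR3 (24.4 and 33.1 for Par, 120.1 and 72.9 for LM2, and 86.8 and 69.4 for BrM2, 1.61 ± 0.38, adjusted p = 0.00136) and the inhibitory SMAD6 (0.90 ± 0.28) also had higher peaks. INHBA (1.15 to 1.94) lost its call without Par replicate 1 or 2 or LM2 replicate 2 or BrM2 replicate 1 or 2, INHBB (1.09) without Par replicate 1, BMP4 (-1.04 to -1.01) without Par replicate 2 or LM2 replicate 1, and TGFBR3 (1.40) without Par replicate 1 or LM2 replicate 1. BMP2 (0.99 to 1.43) and SMAD6 (0.85 to 0.96) lost their calls whichever library was left out. BMP2 (1.04) lost its call with the medians of 5 Mb windows removed. In the Wnt and Notch list 7 of 180 tested peaks were shared higher (3.89%) and 2 shared lower (1.11%), with a median log2 fold change of -0.02. SFRP1, a secreted Wnt antagonist, had 2 higher peaks, the stronger with 60.1 and 70.1 for Par, 309.7 and 274 for LM2, and 344 and 324 for BrM2 (2.27 ± 0.26, adjusted p = 1.05e-14). The ligand genes WNT5A (1.64 ± 0.44) and WNT7A (2.79 ± 0.74), the Notch ligand JAG1 (1.41 ± 0.41) and the receptor FZD8 (2 peaks) had higher peaks too, WNT7A mostly in BrM2 (1.67 in LM2 and 3.91 in BrM2, BrM2 against LM2 adjusted p = 0.0207), whereas both shared peaks of WNT9A fell (-1.09 and -2.44). On its own line test the WNT9A peak at -1.09 was called in BrM2 (-1.35) but not in LM2 (-0.83, adjusted p = 0.19). WNT7A (1.93 to 4.72) lost its call without Par replicate 1 or 2 or LM2 replicate 2 or BrM2 replicate 2, JAG1 (1.24 to 1.53) without Par replicate 1 or 2 or LM2 replicate 1 or 2 or BrM2 replicate 2, and WNT9A (-1.17 to -0.95) without Par replicate 1 or 2 or LM2 replicate 1 or BrM2 replicate 1. WNT5A (1.46 to 1.88) lost its call whichever library was left out. WNT9A (-0.86) lost its call with the medians of 5 Mb windows removed.

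In the RUNX and ETS list 1 of 154 tested peaks were shared higher (0.65%) and 5 shared lower (3.25%), with a median log2 fold change of -0.16. The lower peaks were at RUNX2, ETS1 (-0.99 ± 0.29 and -1.22 ± 0.35) and ETV6 (2 peaks), and the higher one was nearest to ETV4 in an intron of DHX8 (1.95 ± 0.58), further in LM2. The ETV6 peak at a start (-1.09 ± 0.35) was called in BrM2 (-1.77) but not in LM2 (-0.41, adjusted p = 0.82). Its other peak (-1.59 ± 0.48) was called in LM2 (-1.89) but not in BrM2 (-1.29, adjusted p = 0.21). Whether the ETV6 calls held without 1 library is not given here. Of 83 tested peaks at AP-1 genes 1 was shared (1.20%), near FOSL2 (1.16 ± 0.35). Of 104 at genes of the epithelial-mesenchymal transition 2 were shared (1.92%), at a start of PRRX1 (1.71 ± 0.53) and near SNAI1 (0.99 ± 0.32). All of these were shared higher, against 2.47% over all peaks within 100 kb of a start, where 1.40% were shared lower. With each line tested on its own, both ETS1 peaks and the FOSL2 peak were called in BrM2 but not in LM2. The peaks of ETV4, PRRX1 and SNAI1 were called in LM2 but not in BrM2. The ETS1 peak at -0.99 (-0.89 to -0.53) lost its call without Par replicate 1 or LM2 replicate 1 or BrM2 replicate 2, the ETS1 peak at -1.22 (-1.37 to -1.03) without Par replicate 1 or 2 or LM2 replicate 1 or BrM2 replicate 1, and FOSL2 (0.94 to 1.35) without Par replicate 1 or 2 or LM2 replicate 1 or BrM2 replicate 1 or 2. ETV4 (1.59 to 2.37), PRRX1 (1.59 to 1.83) and SNAI1 (0.84 to 1.15) lost their calls whichever library was left out. The ETS1 peak at -0.99 (-0.96, -0.88 and -0.66) lost its call with the replicate block, with chromosome medians removed and with the medians of 5 Mb windows removed. The ETS1 peak at -1.22 (-0.90) lost its call with the medians of 5 Mb windows removed. FOSL2 (1.06 and 1.00) lost its call with chromosome medians removed and with the medians of 5 Mb windows removed.

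In the actin cytoskeleton list 2 of 234 tested peaks were shared higher (0.85%) and 7 shared lower (2.99%), with a median log2 fold change of -0.12. All but 1 of the lower peaks belonged to CAV2, the other to DIAPH1 (-0.86 ± 0.27), a formin. ARHGEF28, a guanine nucleotide exchange factor (148 and 120.2 for Par, 245 and 217 for LM2, and 295 and 312 for BrM2), and RND3 (1.6004 ± 0.46) had the higher ones. In the other lists, 2 (2.15%) and 1 (1.08%) of 93 tested peaks were shared higher and lower for inflammatory cytokines. The interferon and antigen presentation list had the same numbers. For angiogenic factors they were 4 (2.42%) and 3 (1.82%) of 165, and for Hippo 3 (2.34%) and 0 of 128. For hypoxia they were 2 (1.53%) and 1 (0.76%) of 131, and for cell cycle 1 (0.97%) and 2 (1.94%) of 103. Over all peaks within 100 kb of a start the shares were 2.47% and 1.40%. Named members were IL1B, an inflammatory cytokine whose start rose (20.04 and 20.03 for Par, 93.7 and 66.04 for LM2, and 37.05 and 38.6 for BrM2), APOBEC3G, a cytidine deaminase (16.6 and 24.04 for Par, 134 and 103 for LM2, and 83.8 and 131 for BrM2), and IFI27, an interferon-induced gene (59.2 and 54.1 for Par, 25.8 and 26.6 for LM2, and 23.4 and 7.71 for BrM2). TEAD4, the partner of YAP in the Hippo pathway, had a peak 2742 bp from a start at 2.80 ± 0.47 with 9.58 and 9.01 for Par, 48.2 and 40.4 for LM2, and 106 and 80.97 for BrM2, and STK3, a Hippo kinase, one at 2.98 ± 0.59. The vascular growth factor receptor FLT1 was at 1.67 ± 0.39, PDGFD rose at its start (2.96 ± 0.72), and 2 peaks near the vasoconstrictor EDN1 were lower (-1.03 and -0.84), the latter mostly in LM2 (-1.53 in LM2 and -0.16 in BrM2, BrM2 against LM2 adjusted p = 0.00309). LOX, a collagen-crosslinking enzyme (2.03 ± 0.56), CA12, a carbonic anhydrase (-0.96 ± 0.28), CCND1, cyclin D1 (1.99 ± 0.65), and GADD45A, a p53 target (-1.56 ± 0.41), had 1 named peak each. With each line tested on its own, IL1B, LOX, CCND1, GADD45A and the EDN1 peak at -1.03 were called in LM2 but not in BrM2. The peaks of IFI27, CA12 and ARHGEF28 were called in BrM2 but not in LM2, and those of APOBEC3G, TEAD4 and FLT1 in both. DIAPH1 (-0.96 to -0.51) lost its call without Par replicate 1 or LM2 replicate 1 or 2 or BrM2 replicate 1 or 2, ARHGEF28 (0.84 to 0.94) without Par replicate 2 or LM2 replicate 1, RND3 (1.24 to 2.10) and GADD45A (-1.55 to -1.48) without Par replicate 1 or 2 or LM2 replicate 1 or BrM2 replicate 1, IL1B (1.32 to 1.48) without Par replicate 1 or 2 or LM2 replicate 1 or BrM2 replicate 1 or 2, IFI27 (-1.51 to -1.19) without Par replicate 1 or 2 or LM2 replicate 1 or 2 or BrM2 replicate 2, FLT1 (1.601 to 1.73) without Par replicate 1 or 2, PDGFD (2.22 to 4.83) without Par replicate 1 or 2 or BrM2 replicate 1, and LOX (1.57 to 2.75) without Par replicate 1 or 2 or LM2 replicate 1 or 2 or BrM2 replicate 1. EDN1 (-1.08 to -0.99), CA12 (-1.05 to -0.89) and CCND1 (1.33 to 3.11) lost their calls whichever library was left out. IFI27 (-1.32 and -1.33) and EDN1 (-0.94 and -0.97) lost their calls with chromosome medians removed and with the medians of 5 Mb windows removed.

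In a list of genes tied to lung or brain metastasis in earlier work on these sub-populations, which is not independent evidence, 4 of 113 tested peaks were shared higher (3.54%) and 1 shared lower (0.88%), with a median log2 fold change of 0.18. Over all peaks within 100 kb of a start the shares were 2.47% and 1.40%. The higher peaks belonged to PLCB1 (3 peaks, 3.25 to 4.52) and RIMS2 (0.99 ± 0.24), a protein of the presynaptic active zone, and the lower one to EREG. The RIMS2 peak had 176 and 172 for Par, 279.9 and 277 for LM2, and 478 and 379.8 for BrM2. Of its strong neighbours, 0 of 3 were on the same side. RIMS2 (0.91 to 1.01) lost its call without Par replicate 1 or 2 or BrM2 replicate 1.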

How the data were processed

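ChIP-seq for H3K27ac and H3K4me3 had been made from Par, LM2 and BrM2, with 2 replicates per line and mark, and 3 input libraries were not used here. The deposited values are raw read counts per consensus peak, which the authors made with featureCounts (1.6.0, file header). The submitters' processing notes name Bowtie2 2.3.4.3, MACS2 2.1.2, HOMER 4.10, Picard 2.18.21, Trimmomatic 0.32 and hg19. Depth (counts in peaks) limits the precision at weak peaks.

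All 62195 H3K27ac peaks in 6 libraries were fitted with DESeq2 1.42.0 (R 4.3.3), and the mean of LM2 and BrM2 was tested against Par by the two-sided Wald test with Benjamini-Hochberg adjustment. Peaks that DESeq2 gave no adjusted p were not tested. Values are normalized by size factors, and errors are standard errors of the log2 fold change. H3K4me3 was fitted in the same way and joined by an overlap of at least 1 bp. The scripts were tested on simulated data. Transcript starts came from GENCODE release 44 lifted to hg19, and sequences from the hg19 genome. Named peaks were the strongest by number per gene, fold change (promoter and distal, mean count of at least 50), adjusted p and list. The members and lists were chosen with earlier results of these data known. Some loci that the rule names are not reported here.

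The study's methods give 2 biological replicates, and the p-values measure only the spread between these libraries. Same-numbered replicates deviated together (H3K27ac r = 0.407 for Par and LM2, 0.607 for Par and BrM2 and 0.48 for LM2 and BrM2, over 20124 peaks, and H3K4me3 r = 0.843, 0.788 and 0.825 over 13309 peaks), so fits with the replicate block are given where they move a count. Alternatives were edgeR 4.0.16, TMM factors, a minimum of 10 counts, removal of chromosome or 5 Mb medians, and leaving out each library.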

Additional observations from a re-analysis of the deposited data

Results flagged for a closer look

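A direct test of BrM2 against LM2 (DESeq2 1.42.0, 2 libraries per line) separated the lines at 8 of the 61 named peaks (by the rule both lines lie on 1 side of Par there). It separated them at 2.94% of all tested peaks, 9.52% of shared higher and 6.56% of shared lower members. The named peaks were picked from these same data, so their count is a description. Among shared higher peaks, the gain went further in BrM2 at AFF3 (1.49 ± 0.38 on the log2 scale, adjusted p = 0.0069, with 1.52 in LM2 and 3.02 in BrM2 against Par). It also went further in BrM2 at PIEZO2 by 1.26 (adjusted p = 0.00586), at NFILZ by 1.41 (adjusted p = 7.48e-05) and at TENM2 by 2.24 (adjusted p = 1.40e-05). At the peak nearest to ETV4 the difference was -2.05 (adjusted p = 0.0226), with 2.97 in LM2 and 0.92 in BrM2. Among shared lower peaks, the loss went further in BrM2 at FPR1 (-1.79, adjusted p = 0.0188) and CLDN23 (-2.63, adjusted p = 2.08e-06). At EPHB6 it went further in LM2, with a difference of 2.73 (adjusted p = 9.05e-13) and log2 fold changes of -3.06 in LM2 and -0.33 in BrM2. Groups of 2 libraries are too small for a check of single outlying libraries.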

How the results depend on the processing

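Counts of calls moved with the model. The direction of the members was set by how they were chosen, so it is no measure of stability. The counts here are peaks higher, lower, shared higher, shared lower and H3K4me3 partners called in the same direction, which were 1628, 744, 1576, 701 and 161. DESeq2 with the replicate number as a block gave 2088, 1382, 1913, 1187 and 435, and with edgeR 2470, 1459, 2357, 1338 and 152. With edgeR and the replicate block they were 4885, 4526, 3980, 3374 and 1140, and the share of higher calls was 51.9%. With at least 10 counts in every library they were 953, 466, 928, 445 and 74. Lower and shared lower peaks numbered 440 and 405 with chromosome medians removed, and 343 and 324 with 5 Mb window medians removed. Leaving out 1 library at a time gave 479 to 1001 higher, 101 to 351 lower, 478 to 986 shared higher, 100 to 340 shared lower and 20 to 85 partners, with a share of higher calls of up to 83.5%. In every case where the range was lowest a Par library had been left out, with 1 Par library remaining. Of the 2277 members, edgeR called 2277 and the window fit 1625, and 18 had the opposite sign in the window fit. Of the 61 named peaks 12 lost their call with windows removed, 4 with chromosome medians removed and 9 to 24 without 1 library, and 0 with the replicate block, edgeR, TMM factors or the minimum of 10 counts where tested. Only 42 of the 61 named peaks and 1370 of the 2277 members met that minimum, so it says nothing about the rest. The 90 other shared peaks of the gene lists all kept their call with edgeR and with TMM factors. With 5 Mb window medians removed 27 of them lost it, and with chromosome medians removed 19. Most of these list peaks also lost their call when either Par library was left out. TMM factors and leaving out chromosome X, the latter chosen after seeing the data, kept all counts within 1.5 times. The cause of these differences was not tested. Assignment to the gene's 5′ end gave 1545 in place of 1524 genes, with the same gene at 85.6% of members.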
